A study of Mus musculus with 6 samples.

Results

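The 9 genes described here encode interferon-induced GTPases and 2 of their regulators. They are Gbp2, Gbp3, Gbp5 and Gbp7 of the guanylate-binding proteins, Irgm1, Igtp and Iigp1 of the immunity-related GTPases, the transcription factor gene Irf1 and the feedback inhibitor gene Socs1. They were chosen by symbol, 1 Ensembl identifier each, among 45706 identifiers with RNA-seq counts, and all 9 had enough counts to be tested. The 6 libraries were made from mouse bone marrow, 2 of cultures in control medium (replicates 1 and 2) and 4 of cultures in medium conditioned by VpR ccRCC cells, which are clear cell renal cell carcinoma cells of a mouse model. Each conditioned library had the medium of another line, VpR83, VpR99, VpR126 or VpR2020, so the lines are the replicates of conditioned medium and each line is 1 library. Mouse strain, age and culture time were not in the labels. Nor do these tell separate animals from repeats of 1 culture. The p-values reflect the spread among libraries, which includes differences between the lines in conditioned medium and may otherwise be technical. The groups follow the sample labels (control medium), although the design text speaks of fresh marrow as the comparator. Differences of culture time and of medium therefore cannot be told apart.

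Interferon-γ binds a receptor with JAK kinases, and the signal reaches GAS elements in target promoters. Irf1 is an early target, and its product binds IRF elements in the promoters of a second wave of genes that includes the GTPases. Type I interferons use another receptor, and their signal reaches elements close to the IRF kind. Guanylate-binding proteins coat pathogen vacuoles and bacteria and help inflammasomes to sense them, and immunity-related GTPases act on vacuoles and, in the case of Irgm1 and Igtp, restrain the other GTPases at the cell's own membranes. SOCS1 blocks JAK kinases and so closes the loop.

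Promoter windows are shown because the GTPase genes and their regulators share these elements. A window ran from 250 bases before to 50 bases after a RefSeq start (GRCm38.p6), and 8 of the 9 genes had one, Iigp1 not. The IRF element was searched as GAAA, any 2 bases and GAAA again, and the GAS element as TTCNNNGAA, both on either strand, so that an IRF match on the other strand reads TTTC, 2 bases, TTTC. An IRF element was in the windows of 7 of the 8 genes (all but Irf1), against 3.43% of 32807 promoter windows of all genes. A GAS element was in 4 of the 8 (Gbp5, Gbp7, Igtp and Irf1), against 8.29%. Either element was in 8 of 8, against 11.3%. These are matches of letters and no measurement of binding. Irf1 and Gbp3 have a second window, with no match, and the RefSeq start of Gbp5 lies 2956 bases inside its annotated gene. Those of Irgm1 and Gbp2 lie 263 and 61 bases inside, and positions of matches are counted from the RefSeq start. Windows of 5 genes follow, 5′ to 3′ on the strand of the gene with matches in capitals: Gbp2 (chr3:142620413-142620712, plus strand), Gbp7 (chr3:142530086-142530385, plus strand), Igtp (chr11:58199306-58199605, plus strand), Irf1 (chr11:53769764-53770063, plus strand) and Socs1 (chr16:10785487-10785786, minus strand).
Gbp2 promoter: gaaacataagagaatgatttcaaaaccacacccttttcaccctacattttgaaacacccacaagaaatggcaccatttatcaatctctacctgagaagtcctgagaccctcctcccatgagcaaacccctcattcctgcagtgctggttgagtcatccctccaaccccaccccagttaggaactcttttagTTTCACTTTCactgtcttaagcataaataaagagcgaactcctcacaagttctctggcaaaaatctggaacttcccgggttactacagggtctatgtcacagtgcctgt
Gbp7 promoter: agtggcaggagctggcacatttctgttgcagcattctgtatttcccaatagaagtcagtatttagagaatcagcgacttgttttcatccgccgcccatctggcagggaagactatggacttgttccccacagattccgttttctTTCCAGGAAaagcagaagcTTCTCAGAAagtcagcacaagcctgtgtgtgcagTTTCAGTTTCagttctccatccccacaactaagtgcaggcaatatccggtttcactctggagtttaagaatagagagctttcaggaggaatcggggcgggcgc
Igtp promoter: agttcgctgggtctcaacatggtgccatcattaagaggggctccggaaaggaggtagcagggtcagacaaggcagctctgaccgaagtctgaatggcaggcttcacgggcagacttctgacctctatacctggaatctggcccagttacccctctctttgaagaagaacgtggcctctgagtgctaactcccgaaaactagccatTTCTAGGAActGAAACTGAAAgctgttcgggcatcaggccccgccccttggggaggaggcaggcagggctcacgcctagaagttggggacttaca
Irf1 promoter: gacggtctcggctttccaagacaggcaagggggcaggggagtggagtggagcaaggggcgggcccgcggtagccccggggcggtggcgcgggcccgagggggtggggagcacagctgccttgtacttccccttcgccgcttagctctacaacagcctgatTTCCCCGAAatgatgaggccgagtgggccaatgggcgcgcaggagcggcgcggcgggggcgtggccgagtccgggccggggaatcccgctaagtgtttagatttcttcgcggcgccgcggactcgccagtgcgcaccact
Socs1 promoter: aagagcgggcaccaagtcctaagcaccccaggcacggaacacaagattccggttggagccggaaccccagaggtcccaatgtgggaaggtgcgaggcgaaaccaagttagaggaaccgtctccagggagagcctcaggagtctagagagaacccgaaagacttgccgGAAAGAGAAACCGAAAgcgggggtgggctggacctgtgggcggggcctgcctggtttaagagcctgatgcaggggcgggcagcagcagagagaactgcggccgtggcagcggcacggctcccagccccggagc
The IRF match of Gbp2 begins 59 bases before the start, that of Gbp7 53 and that of Igtp 34. The GAS matches of Gbp7 begin at 106 and 87 bases before the start and that of Igtp at 45. The match of Irf1 is a GAS element alone, 90 bases before the start. Socs1 has a pair of overlapping IRF matches at 83 and 77 bases. Overlapping IRF matches also lie in the windows of Gbp3 (45 and 39 bases) and Irgm1 (30 and 24 bases), whereas Gbp5 has 1 IRF match at 165 bases and GAS matches at 245 and 52.

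Gbp7 rose in conditioned medium and the other 8 genes were not called. Counts were compared with the quasi-likelihood test of edgeR, p-values were adjusted (Benjamini-Hochberg) over 15141 genes, and calls were made below 0.05. By this rule 1 of the 9 genes was called higher and 0 lower, whereas 22.5% of all tested genes were called higher and 42.2% called in either direction. At an unadjusted p below 0.05 there were 4 of the 9, and DESeq2 called 6 higher (Gbp2, Gbp3, Gbp5, Gbp7, Irgm1 and Iigp1) and limma voom 1. Over all tested genes DESeq2 called 26% higher and limma voom 20.8%. Calls also became fewer over all tested genes when a control was left out. The median log2 fold change of the 9 was 1.96, and that of all tested genes -0.01 (-0.015 before rounding). All 4 conditioned libraries lay above both controls in 4 of the 9 genes (Gbp2, Gbp5, Gbp7 and Irgm1), and this held for 32.0% of all tested genes. In 0 of the 9 were all 4 below both controls (33.3% of all tested genes), so 4 of 9 had groups that did not overlap, against 65.3%. Fitted folds were large in several genes that were not called, and in those genes the 4 media differed widely. The plot of fitted differences shows this by the length of the error bars.

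**Figure D1:**
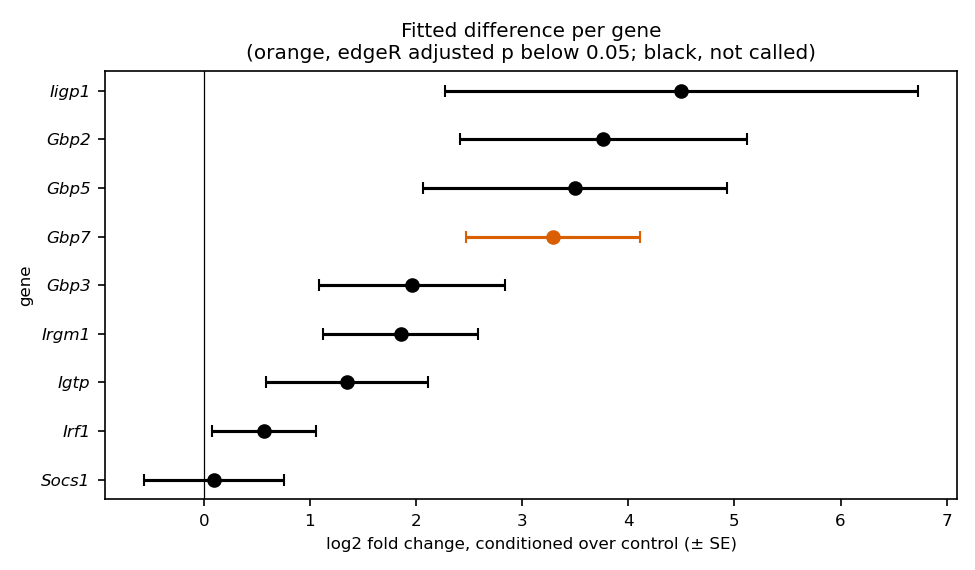
Log2 fold change of conditioned over control medium for each of the 9 genes (x axis), with bars of ± SE from edgeR's fit of 2 control and 4 conditioned libraries. Gbp7 (orange) was called, at 3.29 ± 0.82, and Iigp1 had the highest value and the longest bar, at 4.50 ± 2.23.

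The 4 guanylate-binding protein genes lie beside each other on chromosome 3 (GRCm38), with Gbp2b between Gbp3 and Gbp2, within 144 kb from 142493978 to 142638008. Values are in CPM, read counts scaled to library size by the TMM method. Gbp7 (142530342 to 142550149) had 12.6 and 11.04 CPM in control replicates 1 and 2, and 28.2 CPM under VpR83 medium, 90.8 under VpR99, 222.9 under VpR126 and 121.3 under VpR2020. Every conditioned library was above both controls, and the means were 11.8 ± 1.10 (SD, n = 2) and 115.8 ± 81.2 CPM (SD, n = 4). Its log2 fold change was 3.29 ± 0.82 (SE, edgeR adjusted p = 0.021). The call of Gbp7 was lost without control replicate 1 or 2 (adjusted p = 0.12 and 0.13, range over the alternatives 7.8e-06 to 0.13) and with no low-count filter (0.077).

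Gbp2 (142620602 to 142638008), whose product is a GTPase with a lipid anchor, had 10.3 and 11.9 CPM in the controls and 21.9, 59.0, 446.1 and 76.8 CPM under VpR83, VpR99, VpR126 and VpR2020 media. The conditioned libraries were all above the controls, and VpR126 medium had 20.4 times the level of VpR83 medium. On the log2 scale Gbp2 differed by 3.77 ± 1.35 (SE, edgeR adjusted p = 0.063). Gbp5 (142493978 to 142522344), which promotes inflammasome assembly, had control levels of 4.93 and 4.75 CPM and, in the same order of media, 6.59, 19.7, 168.6 and 24.2 CPM. Its groups did not overlap either, and its log2 fold change was 3.50 ± 1.43 (edgeR adjusted p = 0.091). Without VpR126, Gbp2 and Gbp5 were both called at lower folds, with log2 fold changes of 2.26 and 1.81 (adjusted p = 0.021 and 0.046). Without VpR83 they were called too (4.13 and 3.87, adjusted p = 0.034 and 0.047, ranges over the alternatives 0.00048 to 0.25 and 0.0025 to 0.29).

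Gbp3 (142560026 to 142573209) was the exception among the 4, since its level under VpR83 medium was below the controls. Its levels were 19.2 and 18.9 CPM in control medium and 16.5, 48.1, 168.7 and 63.6 CPM under VpR83, VpR99, VpR126 and VpR2020 media. On the log2 scale Gbp3 differed by 1.96 ± 0.87 (edgeR adjusted p = 0.11). It was called without VpR83 (2.30, adjusted p = 0.033, range 0.023 to 0.32), and without VpR126 its log2 fold change was 1.18. The summed level of the 4 Gbp genes was 47.0 and 46.6 CPM in the controls and 73.1, 217.7, 1006 and 286.0 CPM in the 4 media. Reads of related Gbp genes may be split or lost by the authors' counting, which would touch single values.

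Of the 3 immunity-related GTPase genes, 0 were called by edgeR, 1 had an unadjusted p below 0.05, and DESeq2 called 2 (Irgm1 and Iigp1) and limma voom 0. Irgm1 (chromosome 11, 48861968 to 48871683), a regulator of the other GTPases and of autophagy, had 27.0 and 43.2 CPM in the controls and 47.7, 139.4, 254.3 and 66.0 CPM under VpR83, VpR99, VpR126 and VpR2020 media. All conditioned values were above the controls, the lowest of them by a margin smaller than the gap between the controls. Its log2 fold change was 1.85 ± 0.73 (edgeR adjusted p = 0.082), and it was called without VpR83 (2.13, adjusted p = 0.042, range 0.013 to 0.32). Igtp (chromosome 11, 58199556 to 58207591), of the same regulatory class as Irgm1, had control levels of 14.3 and 21.3 CPM, and 16.4, 44.8, 98.5 and 21.6 CPM followed in the media. VpR83 medium lay between the controls and VpR2020 medium just above the higher control, so the groups overlapped (1.35 ± 0.76, edgeR adjusted p = 0.19). The annotation places Igtp and Irgm2 over each other on the same strand, so their counts may be shared.

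Iigp1 (chromosome 18), an effector GTPase that disrupts vacuole membranes, had the lowest control level of the 9 genes and the widest range. It had 41 and 31 counts in the controls, equal to 1.37 CPM (exact 95% Poisson interval 0.981 to 1.85) and 1.46 CPM (0.99 to 2.07). VpR83 medium had 12 counts, or 0.439 CPM (0.227 to 0.767), below both controls. VpR2020, VpR99 and VpR126 media had 3.76, 10.5 and 113.4 CPM, so that VpR126 exceeded VpR83 258.2-fold. These intervals cover counting error only. On the log2 scale Iigp1 differed by 4.50 ± 2.23 (edgeR adjusted p = 0.15), and 1.83 without VpR126.

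Irf1 and Socs1 were not called by edgeR, DESeq2 or limma voom, and the levels of both overlapped between the groups. Irf1 (chromosome 11, 53770014 to 53778374) had 71.0 and 80.1 CPM in the controls and 61.5, 81.9, 207.5 and 97.1 CPM under VpR83, VpR99, VpR126 and VpR2020 media. VpR83 medium was below both controls, VpR99 medium within 2 CPM of the higher control, and VpR126 medium well above both. For Irf1 the log2 fold change was 0.57 ± 0.49 (edgeR adjusted p = 0.37), and 0.10 without VpR126. Gm17334 overlaps Irf1 on the other strand, and the strand setting of the counting is not given. Socs1 (chromosome 16, 10782240 to 10785536) had control levels of 5.63 and 6.25 CPM, and 2.49, 9.26, 10.6 and 2.88 CPM followed in the media. VpR83 and VpR2020 media lay below the controls and VpR99 and VpR126 media above them. For Socs1 it was 0.09 ± 0.66 (0.095 before rounding, edgeR adjusted p = 0.92). It was -0.12 and -0.16 under upper-quartile and library-total scaling, -0.15 without VpR99 and -0.25 without VpR126.

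**Figure D2:**
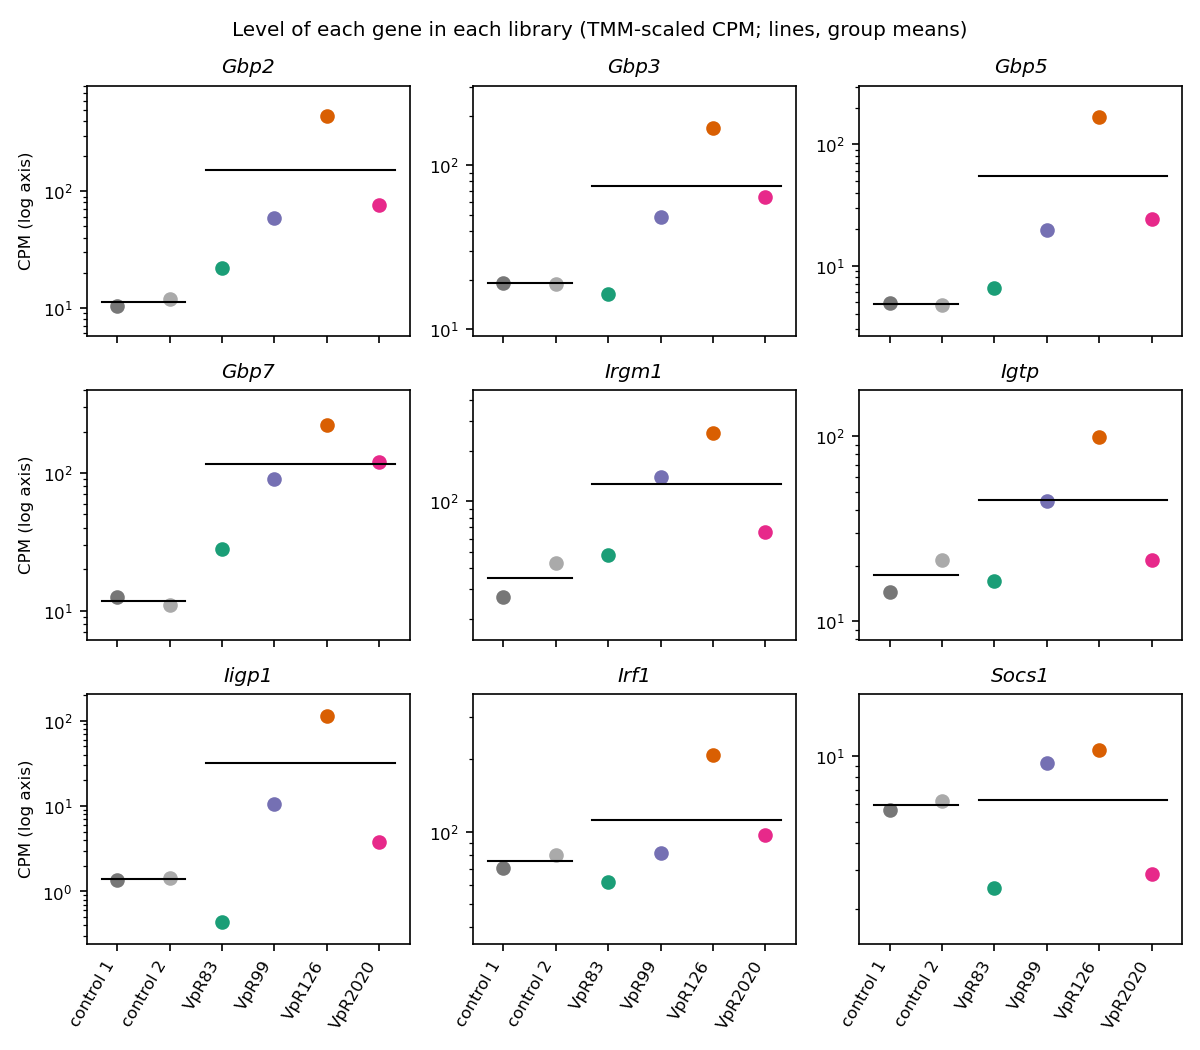
TMM-scaled CPM (y axis, log scale, its range set per panel) of each gene in the 2 control and 4 conditioned libraries (x axis), with 1 point per library and lines at the group means. In all 9 panels VpR126 is the highest and VpR83 the lowest of the conditioned libraries, and the controls are farthest apart for Irgm1, at 27.0 and 43.2 CPM.

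Line by line, the order of the media was shared by its ends and not by its middle. VpR126 medium was the highest and VpR83 medium the lowest of the 4 in 9 of 9 genes, and VpR126 was the highest in 31.7%, VpR83 the lowest in 22.6% and both in 13.3% of all tested genes. The median difference of the 9 genes from the control mean, in log2 CPM with a prior count of 2, was -0.09 (VpR83), 2.02 (VpR99), 3.14 (VpR126) and 1.38 (VpR2020). The same median over all tested genes lay between -0.06 and -0.01 in the 4 lines. VpR83 medium differed from the control mean by 0.98 for Gbp2 and 1.25 for Gbp7 (1.255 before rounding), and by -1.58 for Iigp1 and -1.24 for Socs1. With 1 library per line, no difference between lines was tested.

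The range over the 4 lines was 7.86 log2 units for Iigp1, 4.67 for Gbp5 and 4.35 for Gbp2, wider than in 99.9%, 98.8% and 98.5% of tested genes. It was 1.75 for Irf1 and 2.08 for Socs1, wider than in 81.9% and 87.4%. The median range of all tested genes was 0.78. The controls differed by at most 0.206 log2 units in 7 of the genes, and by 0.675 for Irgm1 and 0.572 for Igtp, with replicate 2 higher. Igtp, at -0.09 and 0.30 under VpR83 and VpR2020 media, was thus within or near the gap between its controls.

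**Figure D3:**
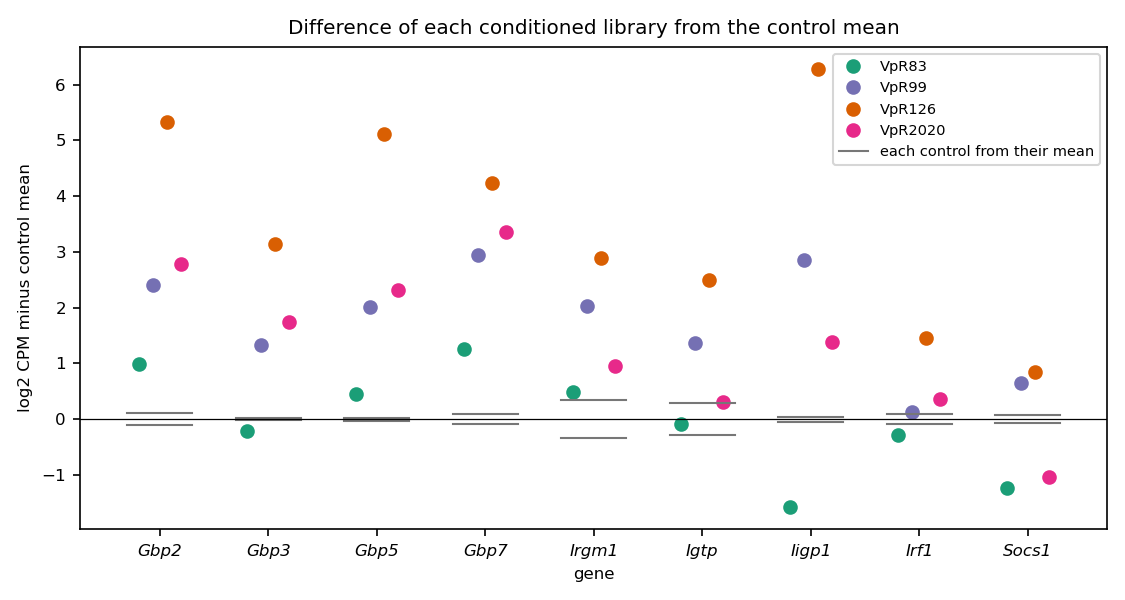
Difference of log2 CPM from the control mean (y axis) for each gene (x axis), with 1 point per conditioned library and grey lines at the 2 controls. VpR126 reaches 6.28 for Iigp1 and 1.46 for Irf1, and VpR83 runs from -1.58 for Iigp1 to 1.25 for Gbp7.

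Per kilobase of exon, Irf1 had the highest level in control medium, with 17.9 and 20.1 CPM per kb in replicates 1 and 2. Igtp, Irgm1, Gbp3 and Gbp2 followed at 8.82 ± 2.45, 6.04 ± 1.97, 5.83 ± 0.0661 and 4.41 ± 0.447 CPM per kb (SD, n = 2), and of these the replicates of Irgm1 overlapped those of Igtp, Gbp3 and Gbp2. Gbp7 and Socs1 had 2.11 ± 0.196 and 2.04 ± 0.150, also within their spread, and Gbp5 and Iigp1 the lowest levels, at 0.729 ± 0.0198 and 0.242 ± 0.0110. Under VpR126 medium the order was another. Gbp2 led with 177.3 CPM per kb, followed by Irf1 (52.2), Gbp3 (51.7), Igtp (48.7), Irgm1 (43.8), Gbp7 (39.7), Gbp5 (25.4), Iigp1 (19.5) and Socs1 (3.66). Under VpR83 medium Irf1 led again with 15.5 CPM per kb, ahead of Gbp2 with 8.69.

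Most other genes of both GTPase families had the same ends of the order, with VpR126 highest in 5 of 6 Gbp genes and 11 of 13 immunity-related GTPase and Gvin genes, and VpR83 lowest in 6 and 11. Of 7 other Gbp genes 6 were tested and 0 were called by edgeR, 2 had an unadjusted p below 0.05, and DESeq2 called 5. Their median log2 fold change was 2.82 with Gbp2b and Gbp11, which had 0 counts in both controls, set to their bounds (3.60 as fitted). With counts pooled over the 4 media, Gbp2b was at least 14.7-fold and Gbp11 at least 5.15-fold higher, against 3 counts over both controls. Under VpR83, VpR99, VpR126 and VpR2020 media Gbp2b had 1, 27, 120 and 17 counts and Gbp11 had 0, 16, 33 and 9. The bounds thus do not hold for VpR83 medium, and neither gene was called (edgeR adjusted p = 0.11 and 0.13). Gbp10 had 4 counts in the controls and was not tested. Gbp9, on chromosome 5, had 17.5 and 16.8 CPM in the controls and 13.1, 62.2, 184.2 and 75.5 CPM under VpR83, VpR99, VpR126 and VpR2020 media (2.29 ± 0.95, edgeR adjusted p = 0.096). Gbp8 departed from the order, with 64.4 CPM under VpR2020 and 51.1 CPM under VpR126. Gbp4, Gbp8 and Gbp9 overlap in the annotation, so their single values are uncertain. Without VpR83, Gbp6, Gbp8 and Gbp9 were called (adjusted p = 0.023, 0.015 and 0.017).

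Of 13 other immunity-related GTPase and Gvin genes 4 rose, 0 fell and 9 were not called, with a median log2 fold change of 2.55. Among all tested genes 22.5% rose and 19.7% fell. Of the 13, DESeq2 called 8 higher, and there were 8 without VpR83. The 4 that rose were Gm5431, 9930111J21Rik1, 9930111J21Rik2 and Irgq, with log2 fold changes of 5.11 ± 0.96, 4.08 ± 0.53 (4.085 before rounding), 3.13 ± 0.40 and 1.16 ± 0.26 (edgeR adjusted p = 0.0079, 0.0023, 0.0022 and 0.013). 9930111J21Rik2 had 52.5 CPM under VpR83 medium, the lowest of the 4 lines, and 9.23 and 8.46 CPM in the controls. The 2 Rik genes are related in sequence, so their split is uncertain. Gm5431 and Irgq were not called without control replicate 1 or 2 (adjusted p = 0.071 and 0.052, and 0.11 and 0.066). The log2 fold change of Gm5431 was 5.77 without control replicate 2 and 4.40 without VpR126. Irgm2, the third regulatory GTPase gene beside Irgm1 and Igtp, had control levels of 7.43 and 20.3 CPM and 29.2 to 175.0 CPM under the media (2.55 ± 0.85, edgeR adjusted p = 0.051). It was called without VpR83 or VpR126 (adjusted p = 0.033 and 0.041, range 0.0015 to 0.24).

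The middle of the order differed between the families. VpR2020 medium was above VpR99 medium in all 4 listed Gbp genes and in 9 of all 10 tested Gbp genes (the exception was Gbp6, by -0.02 log2 units), with a median difference of 0.39. It was above VpR99 in 0 of the 3 and in 2 of all 16 tested immunity-related GTPase and Gvin genes, with a median difference of -1.07. Among all tested genes 47.5% were higher under VpR2020, with a median difference of -0.03. Differences in the 4 Gbp genes were small, from 0.30 for Gbp5 to 0.42 for Gbp7, and those of Irgm1, Igtp and Iigp1 were -1.08, -1.05 and -1.47. Irf1 went with the Gbp genes (0.25) and Socs1 with the others (-1.67). All 24 tested type I interferon-stimulated genes were lower under VpR2020 than VpR99, with a median of -2.06. These are differences between 2 libraries, and neither they nor the contrast between families were tested. The plot of this difference by gene group shows the families side by side.

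**Figure D4:**
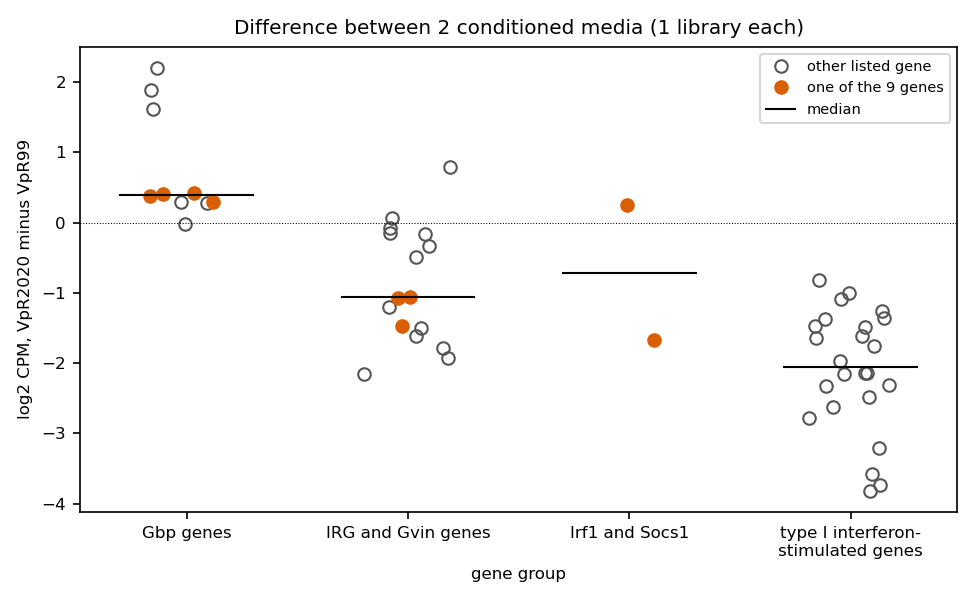
Log2 CPM under VpR2020 medium minus that under VpR99 medium (y axis, 1 library each) for tested genes of 4 groups (x axis), with the 9 genes as filled points, other listed genes as open points and lines at the medians. The median lies at 0.39 for Gbp genes, -1.07 for immunity-related GTPase and Gvin genes and -2.06 for type I interferon-stimulated genes.

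Transcripts of the interferon genes were scarce. Ifng, which encodes interferon-γ, had 94 and 17 counts in the controls and 1, 8, 1 and 3 counts under VpR83, VpR99, VpR126 and VpR2020 media. It fell by 4.76 on the log2 scale (SE 0.73, edgeR adjusted p = 0.0039), fell by 3.44 without control replicate 1 and fell by 5.39 without control replicate 2. Along with Ifng, all 12 T and NK cell markers were lower, and their summed level was 139.3 and 146.5 CPM in the controls and 3.71 to 16.4 CPM (16.45 before rounding) in the media, with Gzma at 0 counts. Their part in the level of Ifng was not tested. In bulk libraries fewer cells of a type and less RNA per cell cannot be told apart. Ifnb1, a type I interferon gene, had 0 counts in the controls and under VpR83 and VpR2020 media, and was not tested. It had 8 and 4 counts under VpR99 and VpR126 media, or 0.065 and 0.169 CPM. Limits of 3 counts were 0.100 and 0.141 CPM in the controls, 0.110 CPM in VpR83 and 0.166 CPM in VpR2020. The level in VpR99 was below each of these limits, so the 0 counts do not show a level lower than in VpR99. The genes Ifna1, Ifna2, Ifna4, Ifna5 and Ifne had 0 counts in every library, which allows up to 0.0243 CPM (3 counts) in VpR99, the deepest library, and up to 0.166 CPM in VpR2020, the library with the highest limit. Among all tested genes 22.5% rose and 19.7% fell. Of the 5 tested ligand genes 1 rose (Il18, 1.35 ± 0.43, edgeR adjusted p = 0.043) and 2 fell (Ifng and Il12a, a subunit gene of interleukin 12, which fell by 2.79, edgeR adjusted p = 0.034). Both Il18 and Il12a were not called without either control, VpR99 or VpR2020 (adjusted p = 0.21, 0.16, 0.069 and 0.065, and 0.17, 0.097, 0.06 and 0.061), and Il12a fell by 3.46 without VpR126. Il18 was also not called under upper-quartile or library-total scaling or by limma voom (0.066, 0.067 and 0.065), nor Il12a with no low-count filter (0.071).

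Receptor genes varied little between the 4 lines. Counts of receptor and signal genes that rose stand beside 22.5% of all tested genes. Of the 4 interferon receptor subunit genes 3 rose, Ifnar1 by 2.07 ± 0.19, Ifngr2 by 1.02 ± 0.25 and Ifnar2 by 0.90 ± 0.19 on the log2 scale (edgeR adjusted p = 0.0009, 0.018 and 0.012), and Ifngr1 was not called (0.48 ± 0.24, adjusted p = 0.15). The median range of the receptor genes over the 4 lines was 0.55 log2 units, against 2.98 for the 9 genes, and VpR83 was the lowest line in 0 of the 4. Ifngr2 was not called without control replicate 1 (adjusted p = 0.14), nor Ifnar2 without either control (0.11 and 0.06). Of 6 JAK-STAT signal genes 2 rose, the kinase genes Jak1 (0.64 ± 0.16) and Tyk2 (1.13 ± 0.26), with edgeR adjusted p = 0.022 and 0.015. Neither was called without control replicate 1 or 2 (0.13 and 0.13 for Jak1, 0.10 and 0.098 for Tyk2), nor Jak1 under upper-quartile or library-total scaling (0.071 and 0.078). Stat2 had control levels of 36.7 and 54.7 CPM and 88.9, 227.9, 437.4 and 99.4 CPM under VpR83, VpR99, VpR126 and VpR2020 media (2.22 ± 0.75, edgeR adjusted p = 0.052), and was called without VpR83, VpR126 or VpR2020 (adjusted p = 0.035, 0.04 and 0.046, range 0.0024 to 0.24).

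Among the brakes, Socs1 stood beside a family in which 5 of 7 other members rose and 0 fell. Counts in this paragraph stand beside 22.5% of all tested genes that rose and 19.7% that fell. Socs3, which restrains cytokine receptors of the interleukin 6 family, rose by 1.77 ± 0.45 and Socs6 by 2.30 ± 0.48 on the log2 scale (edgeR adjusted p = 0.022 and 0.011). Neither was called without control replicate 1 or 2 (0.084 and 0.15, and 0.09 and 0.077), and 3 of the family were called under upper-quartile or library-total scaling, 0 without control replicate 1 and 2 without replicate 2. VpR126 was the highest line in 2 of the 7 genes. Of 6 other brakes of interferon signalling 2 rose and 1 fell, and the phosphatase gene Ptpn1 rose by 1.17 ± 0.18 (edgeR adjusted p = 0.0036). Without either control 1 was higher and 0 lower, under upper-quartile or library-total scaling 1 was higher, and by DESeq2 4. Of 8 other interferon regulatory factor genes 1 rose and 2 fell, with a median log2 fold change of 0.01, and 0 were called without control replicate 1 or 2, VpR83 or VpR2020.

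Response genes outside the GTPases were called higher about as often as genes in general. Of all tested genes 22.5% rose and 19.7% fell, and neither list below had a larger share that rose. Of 21 tested interferon-γ and IRF1 response genes 4 rose and 1 fell, with a median log2 fold change of 0.79 (0.785 before rounding). Without control replicate 1 or 2, 0 were called higher, and there were 2 with no low-count filter, 6 without VpR2020 and 8 by DESeq2. Batf2, a transcription factor gene, rose by 4.20 ± 1.01 and Cd274, the PD-L1 gene, by 3.69 ± 0.81 (edgeR adjusted p = 0.018 and 0.013). Neither was called without control replicate 1 or 2 (0.13 and 0.095, and 0.061 and 0.096), and Cd274 not with no low-count filter (0.052). Batf2 had 3.33 without VpR126 and Cd274 had 4.38 without control replicate 1. Serping1, the complement C1 inhibitor gene, had 75 and 41 counts in the controls and 1 count in the 4 media together. VpR126 was the highest line in 20 of the 21 and VpR83 the lowest in 13. Of 24 type I interferon-stimulated genes 4 rose, with a median of 2.43 (2.435 before rounding), and VpR126 was the highest and VpR83 the lowest line in 24 of 24. The antiviral genes Oas1a and Trim30a rose by 2.49 ± 0.76 (0.755 before rounding) and 2.17 ± 0.59 (edgeR adjusted p = 0.038 and 0.027). Both lost their call without either control (0.20 and 0.14, and 0.15 and 0.13), and with no low-count filter (0.12 and 0.067), and Oas1a also without VpR99 (0.062) and by limma voom (0.068). DESeq2 called 16 of the 24, limma voom 2, upper-quartile and library-total scaling 2 each, and 12 were called without VpR83, 1 without VpR99, 0 without either control and 0 with no low-count filter.

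The summed level of the type I genes was 549.5 and 639.5 CPM in the controls and 623.7, 3418, 7248 and 916.1 CPM under VpR83, VpR99, VpR126 and VpR2020 media. That of the 4 Gbp genes under VpR99 and VpR2020 media, 217.7 and 286.0 CPM, was in the reverse order. While 22.5% of all tested genes rose and 19.7% fell, 5 of 8 inflammasome genes rose and 1 fell. Of 10 genes of ATG8 conjugation, which loads the GTPases on vacuoles, 4 rose and 1 fell. None of either list was called higher without control replicate 1 or 2, and under upper-quartile or library-total scaling 2 and 1 were. Without VpR2020 3 and 1 were called higher. The ATG8 genes had a median range of 0.42 log2 units over the lines, and VpR126 was their highest line in 2 of 10. The NF-κB list held genes of factors that also act on Irf1, together with their feedback genes. Of these 7 genes 0 were called by edgeR and 0 had an unadjusted p below 0.05. VpR126 was the highest line in 7 of the 7, and 1 was called higher without VpR126.

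Genes most like Irf1 over the 6 libraries, by Pearson's r of log2 CPM among 10211 genes with a mean of at least 5 CPM, were Uba7 (r = 0.998), which encodes the activating enzyme of the ubiquitin-like protein ISG15, Rtf2 (0.995), Vsig8 (0.995), AW112010 (0.990) and Stx16 (0.988). Most like Gbp2 were Trafd1 (0.997), Ankle2 (0.996), March1 (0.991), Mlxip (0.988) and Tent5a (0.987). Most like Igtp were Mx1 and Psme2 (0.995 each), an antiviral GTPase gene and a proteasome activator gene, Mx2 (0.9945), Tapbp (0.989) and Epsti1 (0.988). Over the 4 conditioned libraries alone, the 5 genes nearest to Gbp2 (Cutc, Sos2, Per2, Btg1 and Cspp1) had r from 0.999 to 1, a value that 4 points reach easily. Among the 9 genes themselves, r over the 6 libraries ran from 0.25 (Gbp7 with Socs1) to 0.99 (Gbp2 with Gbp5), with a median of 0.90 (0.895 before rounding) over 36 pairs. All pairs share the libraries and their scaling, and these values are descriptions.

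Total counts were 18629708 to 28055913 in 5 libraries and 129120559 in VpR99. Marker calls stand beside 22.5% of all tested genes called higher and 19.7% called lower. Macrophage markers, 8 of 8, were higher in conditioned medium, and their summed level was 452.5 and 469.5 CPM in the controls (replicates 2 and 1) and 9460, 5560, 15200 and 11940 CPM under VpR83, VpR99, VpR126 and VpR2020 media. VpR83, the lowest line for the 9 genes, was the lowest in 0 of these 8 markers. B cell markers were lower in 5 of 6, with 2507 and 2739 CPM summed in the controls and 181.0, 384.7, 694.6 and 251.3 CPM in the same order of media. This is the order of Irgm1, Igtp and Iigp1 over the lines, with VpR83 lowest in 6 of 6 B cell markers, VpR126 highest in 5 and VpR2020 above VpR99 in 0. Neutrophil markers were lower in 7 of 8, with 86540 and 78640 CPM in the controls and 2531, 14530, 6917 and 4231 CPM in the media, and VpR83 was the lowest line in 6 of 8 and VpR126 the highest in 2. Of the other classes, erythroid markers were lower in 6 of 6 (0.292 to 4.52 against 594.0 and 1063, Slc4a1 and Rhag at 0). Dendritic cell markers were lower in 3 of 6 (27.2, 72.3, 96.4 and 44.3 summed in the same order of media, against 112.4 and 119.1). The order of this sum was not that of most of its genes, with VpR83 lowest in 2 of 6 and VpR2020 above VpR99 in 4. Endothelial markers were lower in 2 of 6, with 1 higher (18.9 to 64.6 against 73.3 and 73.8). Epithelial markers, a sign of carried-over tumour cells, had 3.54 to 17.9 CPM summed (17.95 before rounding) in the media and 18.8 and 21.4 CPM in the controls, with Krt8 at 0 in the media and Krt19 at 0 in every library. The part of these markers in the levels of the 9 genes was not tested.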

How the data were processed

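RNA was sequenced from 2 control and 4 conditioned libraries with a stranded Illumina kit, per the labels' protocols. The authors deposited read counts by Ensembl gene identifier without normalization. Per the submitters' processing notes, Trimmomatic 0.38 and STAR 2.5.2b were used with GRCm38. The counting tool and its strand setting were not given in the sources used here. Columns were matched to samples by name, and tags in 3 headers (Ctrl, T1 and LT2) have no explanation in the labels. GENCODE M21 (GRCm38) gave symbols, positions and exon lengths for 45143 of 45706 identifiers.

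In R 4.3.3 with edgeR 4.0.16, filterByExpr kept 15141 genes, TMM scaled the libraries, and robust quasi-likelihood tests (glmQLFit, glmQLFTest) compared the groups, two-sided. The SE is the absolute log2 fold change over the square root of the F statistic. Floors are 3 counts. On simulated counts of 14681 genes for this comparison, 100% of 100 genes changed by 2 log2 units and 47% of 100 changed by 1 were recovered. These rates belong to the simulated counts and do not carry over to genes whose conditioned libraries differed widely. In the real counts Gbp2, Gbp5 and Iigp1 were not called at fitted log2 fold changes of 3.77, 3.50 and 4.50, whereas Gbp7 was called at 3.29. No library pair agreed within sampling noise (chi-square per degree of freedom at least 27.9). Alternatives were other scalings, no filter, DESeq2 1.42.0, limma 3.58.1 (voom), a thinned VpR99 and leaving out each library.

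The 9 genes and all lists were chosen with earlier results of these data known. All 9 genes are named. Of the GTPase, ligand, receptor, JAK-STAT and SOCS lists any gene could be named (the result of 1 gene is not reported here), and of the other lists the 3 called genes with the largest and the 2 genes with the smallest absolute change. Genes most like Irf1, Gbp2 and Igtp are the first by Pearson's r.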

Additional observations from a re-analysis of the deposited data

Results flagged for a closer look

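On the CPM scale, the library of VpR126 medium stood apart from the other 3 conditioned libraries in 3 of the 9 genes. Its gap to the next library, divided by the range of the group, was 0.87 for Gbp2, 0.891 for Gbp5 and 0.911 for Iigp1, above Dixon's 95% critical value for 4 samples. The ratio was not taken on the log2 scale, where the libraries are more evenly spread. In log2 CPM from the control mean, the lowest, second-highest and highest lines of Gbp2 were at 0.98, 2.79 and 5.33. Those of Gbp5 were at 0.44, 2.31 and 5.11, and those of Iigp1 at -1.58, 2.85 and 6.28. Chance alone flags about 1 in 20 groups of normal values, which skewed CPM need not be, and the 9 genes share their libraries. Of the other 6 genes, Irf1 had the highest ratio, at 0.756, also with VpR126 as the far library.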

How the results depend on the processing

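Of 117 values of the 9 genes over 13 alternatives, 99 kept their direction and their side of the threshold, 11 passed it only under the alternative, 3 lost it (all of Gbp7) and 4 changed sign (all of Socs1, from 0.09, with -0.12 under upper-quartile and -0.16 under library-total scaling, and -0.25 to 0.36 over the libraries left out, among them -0.15 without VpR99). Among the 9 genes, 0 were called higher with no low-count filter, 6 by DESeq2 and from 0 to 5 when a library was left out, 0 without control replicate 1 or 2, 5 without VpR83 and 3 without VpR126. None was called lower under any of the 13. Of the 121 tested pathway genes, 34 were called higher and 8 lower, with 21 higher under upper-quartile and 21 under library-total scaling, 63 by DESeq2 and from 4 to 46 without a library (4 and 7 without control replicates 1 and 2). With no low-count filter 3 were called lower, and without a library from 2 to 9. Upper-quartile and library-total scaling moved the median over all genes to -0.22 and -0.26. Of the genes tested in each fit, 18.1% and 17.4% were called higher under these scalings, 10.8% with no low-count filter and 26% by DESeq2. The share was 19.5% without VpR83, 24.2% without VpR126 and 22.5% in the main fit. VpR126 was the highest line and VpR83 the lowest in 9 of 9 genes under every scaling, with a prior count of 0.5 and after thinning VpR99. The same held whichever control or other line was left out, but there the order can change only through the scaling. Without a control, the lone control is assumed to vary like the conditioned libraries. Calls were then fewer over all tested genes too, so a call lost in that fit is not particular to the genes named. No paired analysis was possible because only the controls carry replicate numbers. The causes were not tested. Gbp2b and Gbp11 gave values under 11 of the 13. Few counts limit Iigp1, Gbp2b, Gbp11 and Ifng.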
